A study of Mus musculus with 16 samples.

Results

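The genes described here are Ccn1, Ccn2, Ccn3, Ccn4 and Ccn5, 5 genes of the CCN family of secreted matrix-associated proteins, and Ankrd1, Amotl2 and Ajuba, 3 genes tied to the transcriptional co-activator YAP. They are 8 of the 46320 genes in the count table, and all 8 were among the 19964 genes that passed the filter on expression. The rows were taken by gene symbol, and the group was chosen by the axonal over somatodendritic level of Ccn1 in +/+ motoneurons, which was among the highest of all transcripts. The values of that contrast are therefore given below as a description without a test. Spinal motoneurons of embryonic day 13 mice, either +/+ or Hnrnpr-/-, were grown in microfluidic chambers that separate axons from cell bodies and dendrites. Polyadenylated RNA was sequenced from either compartment, with 4 libraries for each genotype and 16 in all. The 4 groups are thus +/+ soma, +/+ axon, Hnrnpr-/- soma and Hnrnpr-/- axon.

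The Hnrnpr-/- allele is a constitutive CRISPR/Cas9 deletion of the first exons of Hnrnpr, which encodes the RNA-binding protein hnRNP R, so every cell of a knockout culture lacks it, glia and other cells included. The motoneurons of all groups were enriched from lumbar spinal cord by panning with an antibody against p75NTR, a neurotrophin receptor. The medium described for motoneuron cultures in general held 2% horse serum and BDNF at 5 ng/ml, and whether the chambers also held this BDNF is not stated. All chambers received CNTF at 5 ng/ml in both compartments, whereas BDNF at 20 ng/ml was added to the axonal compartment alone. Axonal position and the added BDNF thus cannot be told apart in any comparison of the compartments. The axonal cDNA was also made with the full reaction volume of the kit and amplified with more PCR cycles than the somatodendritic cDNA. In RNA from whole compartments, fewer cells of a type and less RNA per cell cannot be told apart.

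CCN proteins are small secreted proteins of the extracellular matrix that bind integrins, syndecans and LRP receptors. Ccn1 (also called Cyr61) and Ccn2 (also called Ctgf) are the best known transcriptional targets of YAP and its relative TAZ, which have no DNA-binding domain and act through TEAD transcription factors. The kinases of the Hippo pathway, among them Lats1 and Lats2, phosphorylate YAP and TAZ and hold them in the cytoplasm, and tension on the actin cytoskeleton and serum factors release them. In the nervous system Ccn1 and Ccn2 are best known from reactive astrocytes, fibroblasts and cells of the vessel wall. Ankrd1 encodes an ankyrin repeat protein of muscle and nucleus, Amotl2 a junctional protein that binds YAP and restrains it, and Ajuba a LIM domain protein that binds Lats kinases. Amotl2 and Ajuba thus act on the pathway, and their genes are also known as targets of it.

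In GRCm39, the build of the counts, Ccn1 lies on chromosome 3 from 145352726 to 145355740 on the minus strand and Ccn2 on chromosome 10 from 24471340 to 24474581 on the plus strand. Ccn3 and Ccn4 share chromosome 15, at 54609306 to 54617158 and 66763218 to 66795054, both on the plus strand. Ccn5 lies on chromosome 2 from 163662724 to 163675066 on the plus strand. Ankrd1 lies on chromosome 19 from 36089365 to 36097244 (minus strand), Amotl2 on chromosome 9 from 102594290 to 102610616 (plus strand), and Ajuba on chromosome 14 from 54804926 to 54815118 (minus strand). Counts cover all annotated exons of each gene, untranslated regions included.

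Promoter sequences from RefSeq (GRCm38.p6) matched 4 of the 8 genes, Ccn1, Ankrd1, Amotl2 and Ajuba, and they are shown because these genes are named as targets of TEAD factors. Each run is the 250 bases before the annotated start, in the direction of transcription, and capitals mark GGAATG or its reverse complement CATTCC, the core letters that TEAD factors bind.
Ccn1, chr3:145649986-145650235, minus strand: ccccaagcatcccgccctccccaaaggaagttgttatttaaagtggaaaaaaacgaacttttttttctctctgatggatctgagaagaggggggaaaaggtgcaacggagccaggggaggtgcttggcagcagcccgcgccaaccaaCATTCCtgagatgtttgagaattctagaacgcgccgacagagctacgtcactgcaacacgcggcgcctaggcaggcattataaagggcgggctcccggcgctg
Ankrd1, chr19:36119845-36120094, minus strand: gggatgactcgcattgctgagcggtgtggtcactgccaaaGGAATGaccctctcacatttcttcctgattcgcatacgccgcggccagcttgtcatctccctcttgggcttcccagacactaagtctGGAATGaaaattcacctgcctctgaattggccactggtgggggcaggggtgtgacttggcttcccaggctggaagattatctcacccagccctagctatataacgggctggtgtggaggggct
Amotl2, chr9:102717554-102717803, plus strand: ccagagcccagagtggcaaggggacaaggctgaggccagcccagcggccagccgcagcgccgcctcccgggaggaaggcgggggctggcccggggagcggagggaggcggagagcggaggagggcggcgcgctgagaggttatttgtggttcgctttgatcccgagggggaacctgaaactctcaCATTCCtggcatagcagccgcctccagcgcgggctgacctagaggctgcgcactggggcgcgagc
Ajuba, chr14:54577662-54577911, minus strand: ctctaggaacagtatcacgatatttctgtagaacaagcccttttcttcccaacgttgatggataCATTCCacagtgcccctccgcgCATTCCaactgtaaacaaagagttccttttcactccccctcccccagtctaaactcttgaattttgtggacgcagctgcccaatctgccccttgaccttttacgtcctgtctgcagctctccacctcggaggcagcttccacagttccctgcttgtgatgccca
All 4 windows held the TEAD letters. The match began 103 bases before the start in Ccn1 and 65 bases before it in Amotl2, while Ankrd1 had matches at 210 and 123 bases and Ajuba at 186 and 164 bases. Among 32851 RefSeq promoters cut to the same 250 bases, 12.6% held at least 1 match and 1.02% held 2 or more. The AP-1 site TGANTCA and the CArG box of serum response factor were also searched on both strands. Neither was in any of the 4 windows, so that no match overlapped another, while 6.75% and 1.47% of the 32851 promoters held them. A match of letters is a description of the sequence and does not show that a factor was bound.

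The knockout was seen in every library. Hnrnpr was at 178 to 241 CPM in +/+ somatodendritic and 120.0 to 422 CPM in +/+ axonal libraries, where CPM are counts per 1000000 of the TMM-scaled library size. In Hnrnpr-/- libraries it was at 0.545 to 1.16 CPM and 0.597 to 1.10 CPM. Total counts per library were between 22024923 and 34864151. The defining markers of motoneurons were low. Chat, the enzyme that makes acetylcholine, had a mean of 0.899 CPM in +/+ and 1.07 CPM in Hnrnpr-/- somatodendritic libraries, and Isl2 and Mnx1 did not pass the filter on expression. The 5 of 7 motoneuron markers that passed it summed to 13 to 29.7 CPM in +/+ and 16 to 22.1 CPM in Hnrnpr-/- somatodendritic libraries. The cultures are therefore called motoneurons here as the labels call them, and the RNA of a compartment is the RNA of all cells or processes in it.

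Ccn1 and Ccn2 were among the most abundant transcripts of the axonal compartment. Ccn1 reached 726, 439, 1655 and 3240.1 CPM in +/+ axonal libraries 1 to 4, and 10.1, 3.20, 55.5 and 22.7 CPM in the somatodendritic libraries with the same numbers. The lowest axonal value thus lay above the highest somatodendritic value. In Hnrnpr-/- axonal libraries Ccn1 was at 1095, 588, 1613 and 1889.7 CPM, against 10.5, 18.5, 41.3 and 35.4 CPM in the somatodendritic libraries. The groups did not overlap in this genotype either.

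Ccn2 had the higher group mean of the pair in CPM, although Ccn1 was higher in +/+ axonal library 2 and Hnrnpr-/- axonal libraries 2 and 3. Ccn2 was at 1191, 424, 1910.2 and 4612 CPM in +/+ axons and at 14.3, 11.3, 96.2 and 36.8 CPM in +/+ somatodendritic libraries. The Hnrnpr-/- axonal values were 1317, 568, 1409 and 2717 CPM and the somatodendritic values 23.5, 28.1, 81.6 and 52.3 CPM. Axonal library 2 was the lowest and library 4 the highest in both genotypes, for Ccn1 as for Ccn2. Together both genes took 0.0915% to 0.804% of all counts in the 8 axonal libraries and 0.00134% to 0.0142% in the 8 somatodendritic libraries. Per kilobase of exon the ratio of Ccn2 to Ccn1 stayed between 0.737 and 1.38 in the axonal libraries and between 1.2 and 3.0 in the somatodendritic libraries, which is narrow beside the range of either level.

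The other CCN genes were lower. Ccn4 (Wisp1), a target of Wnt signaling, was at 37.7, 30.5, 167 and 97.7 CPM in +/+ axons and 1.87, 1.08, 6.67 and 2.77 CPM in +/+ somatodendritic libraries. In the knockout it was at 41.6, 30.3, 181 and 79.4 CPM in axons and 0.947, 1.43, 7.04 and 4.29 CPM in somatodendritic libraries. In each genotype all axonal libraries were above all somatodendritic ones, and library 3 was the highest of every group.

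Ccn5 (Wisp2), which lacks the C-terminal domain of its relatives, was low outside axonal library 3, with 37 to 97 counts in the other axonal and 5 to 30 counts in the somatodendritic libraries. Its +/+ axonal values were 1.26, 1.03, 12.5 and 2.97 CPM and its +/+ somatodendritic values 0.573, 0.225, 1.24 and 0.422 CPM, so that axonal library 2 lay within the somatodendritic range. In Hnrnpr-/- axons it was at 1.08, 2.73, 41.3 and 2.25 CPM, against 0.906, 0.909, 0.628 and 0.343 CPM in somatodendritic libraries. The level in axonal library 3 stood far above the other 3 in both genotypes, and 1376 of the counts in Hnrnpr-/- axonal library 3 were on this gene, against 37 to 88 in the others.

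Ccn3 (Nov), a CCN protein of the developing nervous system and adrenal gland, was the member without axonal enrichment. It was at 1.02, 1.6, 2.99 and 1.53 CPM in +/+ axons and 3.65, 3.38, 3.35 and 2.82 CPM in +/+ somatodendritic libraries. In Hnrnpr-/- motoneurons it was at 1.10, 2.39, 7.23 and 0.961 CPM in axons and 2.10, 2.73, 1.68 and 5.83 CPM in somatodendritic libraries. The groups overlapped in both genotypes. Ccn6, the remaining family gene and not a member of the group, was at 0.433 to 2.38 CPM in +/+ axons and 3.29 to 8.87 CPM in +/+ somatodendritic libraries, and at 0.120 to 3.66 and 2.15 to 5.95 CPM in Hnrnpr-/- axons and somatodendritic libraries.

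Of the 3 genes outside the CCN family, Ankrd1 varied the most between libraries. It had 328, 3, 369 and 628 counts in the +/+ axonal libraries, or 11.2, 0.0811, 12 and 19.2 CPM, and 0, 0, 21 and 6 counts in the +/+ somatodendritic libraries. A library with 0 counts allows up to 3 counts, and this limit covers counting error only. In Hnrnpr-/- motoneurons it had 926, 24, 375 and 254 axonal counts, or 26.9, 0.745, 11.3 and 8.42 CPM, and 9, 2, 1 and 3 somatodendritic counts. Axonal library 2 was the lowest in both genotypes and in +/+ lay within the somatodendritic range.

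Ajuba followed the CCN genes more closely. It was at 101, 121, 303 and 174 CPM in +/+ axons and 4.44, 4.10, 18.7 and 4.13 CPM in +/+ somatodendritic libraries. The Hnrnpr-/- values were 94.8, 168, 416 and 136 CPM in axons and 3.25, 9.83, 17.8 and 13.1 CPM in somatodendritic libraries. The groups were apart in both genotypes, with library 3 the highest each time.

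Amotl2 was the member with a high somatodendritic level. Its values were 128, 107, 124 and 89.9 CPM in +/+ and 133, 109, 136 and 94.6 CPM in Hnrnpr-/- somatodendritic libraries, with the highest at 1.42 and 1.44 times the lowest. In axons it was at 159.9, 118, 274 and 454 CPM in +/+ and at 218, 181, 307 and 227 CPM in Hnrnpr-/- motoneurons. The +/+ groups overlapped in library 2 and the Hnrnpr-/- groups did not.

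**Figure D1:**
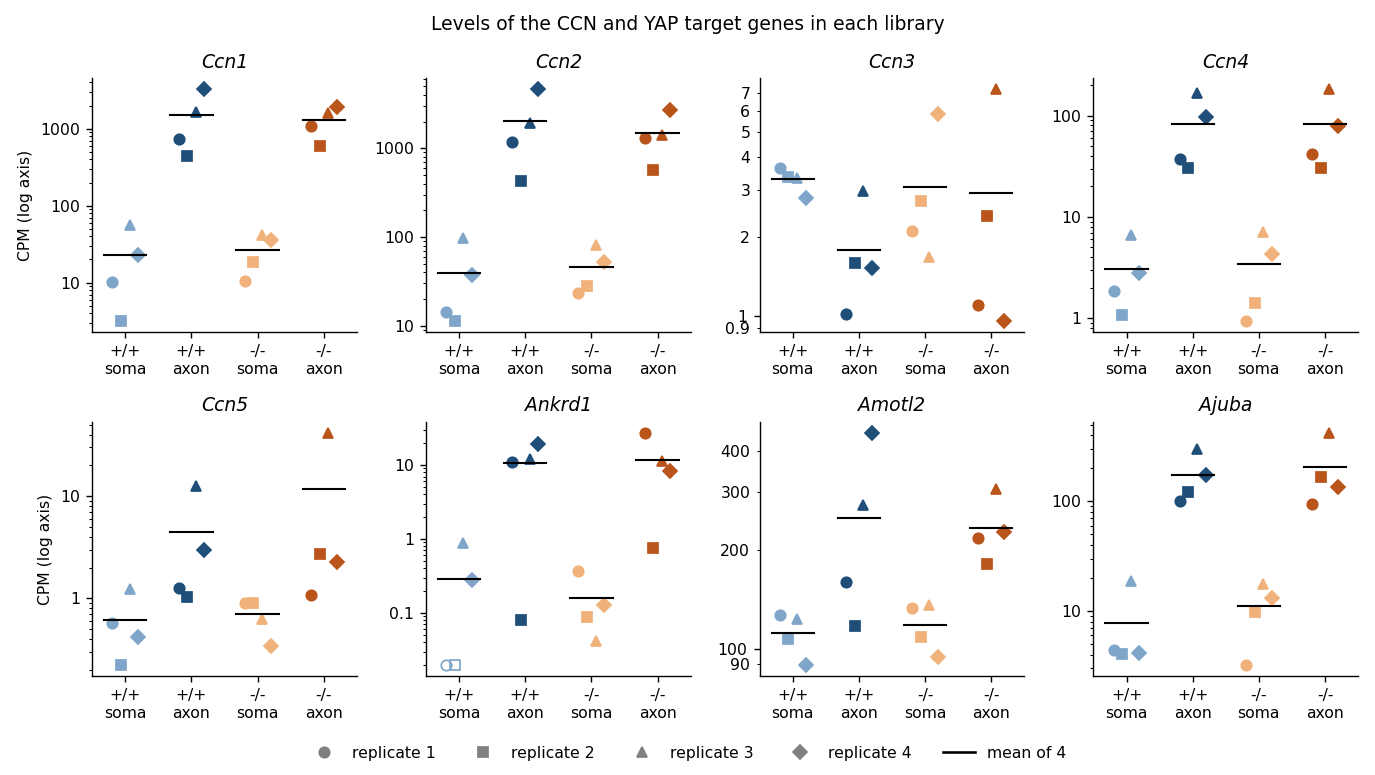
CPM of the 8 genes in each of the 16 libraries (log axis, a different range in each panel), with 1 marker shape for each replicate number and a bar at the mean of 4. Open markers at the bottom of the Ankrd1 panel are the 2 libraries with 0 counts, which a log axis cannot show. The axonal values of Ccn1, Ccn2, Ccn4 and Ajuba lie above the somatodendritic values in both genotypes, whereas those of Ccn3 do not.

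Levels can be compared between genes after division by exon length. In +/+ axons the mean CPM per kilobase was 847 ± 758 (SD, n = 4) for Ccn2 and 747 ± 622 for Ccn1, which placed them 24th and 32nd of the 19964 genes. Amotl2 and Ajuba followed at 51.6 ± 30.8 and 49.9 ± 25.9, then Ccn4 at 16.5 ± 12.5, Ankrd1 at 6.01 ± 4.47, Ccn5 at 2.22 ± 2.72 and Ccn3 at 0.748 ± 0.354. Only the step from Ccn1 to Amotl2 separated neighbours whose library values did not overlap. In +/+ somatodendritic libraries the order per kilobase began with Amotl2 at 23.0 ± 3.52, Ccn2 at 16.5 ± 16.4 and Ccn1 at 11.3 ± 11.4, all overlapping with their neighbours, and Ccn1 was 5692nd. The order in Hnrnpr-/- axons opened with Ccn1 at 639 ± 284 and Ccn2 at 625 ± 372, 37th and 40th of all genes tested, with no overlap between Ccn2 and Ajuba at 58.2 ± 41.4. Ajuba and Amotl2, at 47.9 ± 10.9, overlapped, and Amotl2 and Ccn4, at 16.5 ± 13.6, did not. In Hnrnpr-/- somatodendritic libraries Amotl2 was again the highest at 24.3 ± 4.10 per kilobase and Ccn1, at 13 ± 7.09, did not overlap with Ajuba at 3.14 ± 1.75.

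In +/+ motoneurons, the contrast behind the choice, the log2 fold change of axon over soma was 6.05 ± 0.92 (SE) for Ccn1, 5.68 ± 0.90 for Ccn2, 4.75 ± 0.86 for Ccn4 and 4.48 ± 0.70 for Ajuba. It was 5.21 ± 1.42 for Ankrd1, 2.84 ± 1.11 for Ccn5, 1.17 ± 0.33 for Amotl2 and -0.89 ± 0.58 for Ccn3. All 4 axonal libraries were above all 4 somatodendritic ones for 4 of the 8 genes, Ccn1, Ccn2, Ccn4 and Ajuba, and for 24.8% of all genes tested, from which nothing is read here because the contrast chose the group. Among the 3607 genes that passed this contrast and averaged 50 CPM or more in the 8 +/+ libraries, Ccn1 ranked 3rd by log2 fold change. Just above it stood Cryab, a small heat shock protein, at 6.29 and just below it S100a6, a calcium-binding protein, at 5.99. Ccn2 was 7th, Ajuba 33rd and Amotl2 701st in that ranking.

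The axonal enrichment was tested in the Hnrnpr-/- libraries, which the choice did not use, with edgeR's quasi-likelihood test and Benjamini-Hochberg adjustment over all 19964 genes. Of the 8 genes, 7 were higher in Hnrnpr-/- axons than in Hnrnpr-/- somata at an adjusted p under 0.05 and 0 were lower, against 27.5% and 26.8% of all genes tested. Ccn1 was 49.0-fold higher (log2 5.62 ± 0.90, SE, edgeR adjusted p = 0.000225), Ccn2 32.4-fold (log2 5.02 ± 0.87, adjusted p = 0.000379), Ccn4 24.2-fold (log2 4.60 ± 0.85, adjusted p = 0.000573) and Ajuba 18.5-fold (log2 4.21 ± 0.69, adjusted p = 0.000266). For these 4 genes every axonal value lay above every somatodendritic value. Ankrd1 was higher by 6.19 ± 1.51 on the log2 scale (edgeR adjusted p = 0.00347), a fitted value that rests on 1 to 9 somatodendritic counts. Ankrd1 passed the filter on expression only through its axonal libraries, so its call is no support for the count, which was 6 of 7 without it. Its log2 fold change was 5.38 without Hnrnpr-/- axonal library 1 and 7.09 without Hnrnpr-/- somatodendritic library 1. Ccn4 was at 3.92 without Hnrnpr-/- axonal library 3 and at 5.21 without Hnrnpr-/- somatodendritic library 3. Ccn3 was the exception, with a log2 fold change of -0.08 ± 0.57 (edgeR adjusted p = 0.922).

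The call of Ccn5 rested on 1 library, and that of Amotl2 lay close to the threshold. Ccn5 was higher in Hnrnpr-/- axons by 4.08 ± 1.16 on the log2 scale (edgeR adjusted p = 0.00844), but by 1.57 with an adjusted p of 0.115 without Hnrnpr-/- axonal library 3. Amotl2 was 1.97-fold higher (log2 0.98 ± 0.32, edgeR adjusted p = 0.0191), and stayed at 0.88 on the log2 scale without Hnrnpr-/- somatodendritic library 4 (adjusted p = 0.0560) and 0.86 without Hnrnpr-/- axonal library 3 (adjusted p = 0.0508). Ccn3 fell by 1.27 on the log2 scale in axons (edgeR adjusted p = 0.0452) when the 4 libraries numbered 3 were left out. For 7 of the 8 genes all 4 Hnrnpr-/- axonal values were above all 4 somatodendritic values, as for 24.1% of all genes tested, or for 6 of 7 without Ankrd1, and each of these 7 had an exact two-sided permutation p of 0.0286, the smallest that 4 against 4 libraries allow.

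Axonal and somatodendritic libraries with the same number were also compared as pairs. The log2 CPM difference of axon minus soma was above 0 in 4 of 4 pairs of each genotype for all members but Ccn3. The share of all genes with this pattern was not computed, so nothing is read from that count. The +/+ pairs belong to the contrast that chose the group, and Ankrd1 passed the filter on expression only through axonal libraries. It was between 4.90 and 7.15 for Ccn1 in +/+ and between 4.98 and 6.70 in Hnrnpr-/- motoneurons. Ccn4 had the narrowest span among the strongly enriched genes, 4.28 to 5.11 in +/+ and 4.19 to 5.36 in Hnrnpr-/- pairs. Ankrd1 ranged from 1.11 to 7.32 and from 2.38 to 6.66, and Ccn3 was above 0 in 0 of 4 and 1 of 4 pairs.

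**Figure D2:**
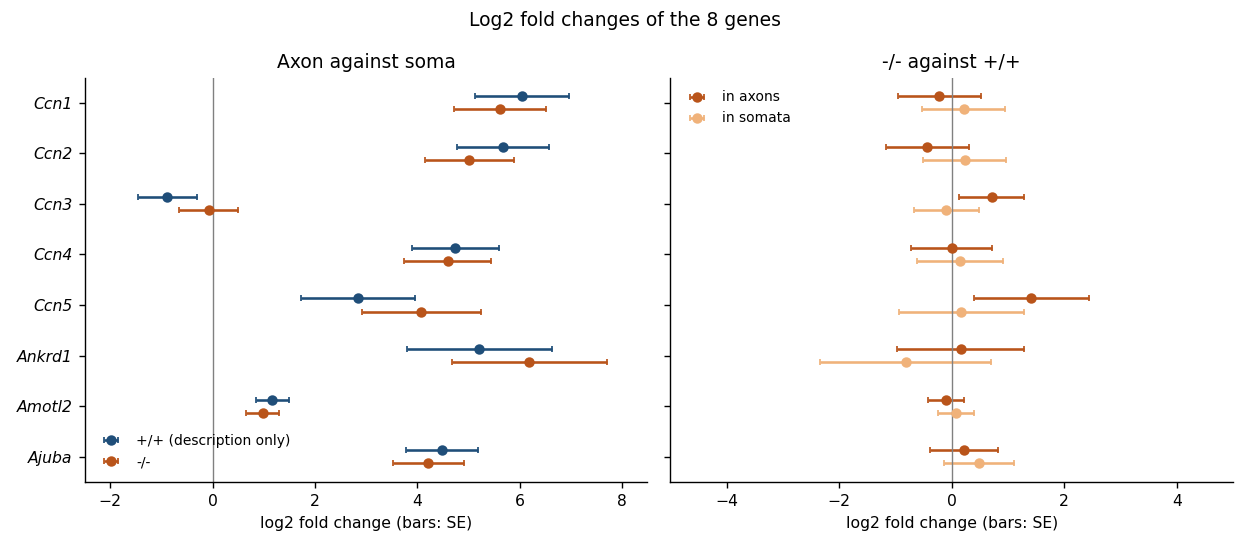
Log2 fold changes with their SE for the 8 genes, on the left for axon over soma in +/+ (a description) and Hnrnpr-/- motoneurons and on the right for Hnrnpr-/- over +/+ in axons and in somata. In Hnrnpr-/- motoneurons 7 of the 8 genes lie to the right of 0 on the left panel, from 0.98 for Amotl2 to 6.19 for Ankrd1, while on the right panel the values lie between -0.82 and 1.41.

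The genotype comparison asks whether loss of hnRNP R changes the level of these transcripts in either compartment. The +/+ libraries that served to choose the group also enter here. None of the 8 genes differed between Hnrnpr-/- and +/+ axons, where 0.01% of all genes did, and none differed between the somatodendritic compartments, where 0.00501% did (edgeR, adjusted p = 1.00 for each). Their unadjusted p values in axons were between 0.187 and 1.00, while 775 of all genes had an unadjusted p under 0.05. In somata they were between 0.443 and 0.879, with 120 such genes over the whole table. DESeq2, which gave an adjusted p for 7 of the 8 genes, called 0 as well. The genotypes overlapped for all 8 genes in each compartment, whereas 0.606% of all genes had groups apart in axons and 1.58% in somata.

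Ccn1 was lower in Hnrnpr-/- axons by 0.22 ± 0.74 on the log2 scale and Ccn2 by 0.44 ± 0.74, well within their standard errors. Both turned to higher, by 0.47 and 0.36, without +/+ axonal library 4. Ccn4 was at a mean of 83.1 ± 68.6 CPM (SD, n = 4) in Hnrnpr-/- and 83.1 ± 63.3 CPM in +/+ axons, a log2 fold change of -0.00022 ± 0.72. The widest difference was that of Ccn5, 1.41 ± 1.02 on the log2 scale in axons, which was -1.13 without Hnrnpr-/- axonal library 3. The values of the others in axons were 0.71 ± 0.58 for Ccn3, 0.16 ± 1.13 for Ankrd1, -0.11 ± 0.32 for Amotl2 and 0.22 ± 0.61 for Ajuba.

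In somata the log2 fold changes of Hnrnpr-/- over +/+ were 0.21 ± 0.74 for Ccn1, 0.23 ± 0.74 for Ccn2, -0.10 ± 0.58 for Ccn3, 0.15 ± 0.77 for Ccn4 and 0.17 ± 1.11 for Ccn5. They were -0.82 ± 1.52 for Ankrd1, 0.08 ± 0.32 for Amotl2 and 0.49 ± 0.62 for Ajuba. The genotype effect in axons minus that in somata was tested as an interaction term. None of the 8 genes passed, nor did any other gene (0% of 19964), with 265 genes at an unadjusted p under 0.05 in edgeR and 1 call by DESeq2 over all genes. The interaction was -0.43 ± 1.05 on the log2 scale for Ccn1 and 1.24 ± 1.5 for Ccn5.

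Within the axonal compartment the 8 genes did not vary alike. The order of libraries for Ccn1 and Ccn2, 4 above 3 above 1 above 2, was the same in +/+ and Hnrnpr-/- axons. Ccn4 had library 3 above 4, then 1 and 2, again in both genotypes, and Ccn3, Ccn5 and Ajuba were also highest in library 3 of each genotype. In +/+ axons the highest library held 7.38 times the lowest for Ccn1 and 12.2 times the lowest for Ccn5, but it was not the same library. The same axonal libraries numbered 3 held the highest sums of the pericyte and smooth muscle markers, 11314 CPM in +/+ and 10074 CPM in Hnrnpr-/- axons, against 1286 to 5039 CPM and 2207 to 3645 CPM in the others. Of these sums, Acta2 alone made up 9784 and 8734 CPM. Lists given below were highest there too, namely the SRF and MRTF genes (7401 and 7418 CPM) and other YAP or TAZ targets (2479 and 2615 CPM). So were YAP, TAZ and the TEAD factors with Vgll4 (428 and 466 CPM). The fibroblast or meningeal markers were highest in axonal library 4 and lowest in library 2 of both genotypes, like Ccn1 and Ccn2, at 805, 137, 475 and 1654 CPM in +/+ libraries 1 to 4 and 537, 436, 629.7 and 1741 CPM in Hnrnpr-/- ones. In +/+ axons they were higher in library 1 than in library 3, unlike Ccn1 and Ccn2. The receptors that bind CCN proteins, listed below, were also highest in library 4 (4506 CPM in +/+ and 3114 CPM in Hnrnpr-/- axons) and lowest in library 2 (1262 and 1563 CPM). The part of either set of cell type markers, or of the lists named beside them, in the levels of the members was not tested. Without the 4 libraries numbered 3, a choice made after the data were seen, Ccn1, Ccn2, Ccn4 and Ajuba were still called higher in Hnrnpr-/- axons. Ankrd1 was too, but it passed the filter on expression only through axonal libraries, and Ccn5 and Amotl2 were not. These calls are no test of the part of the markers.

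**Figure D3:**
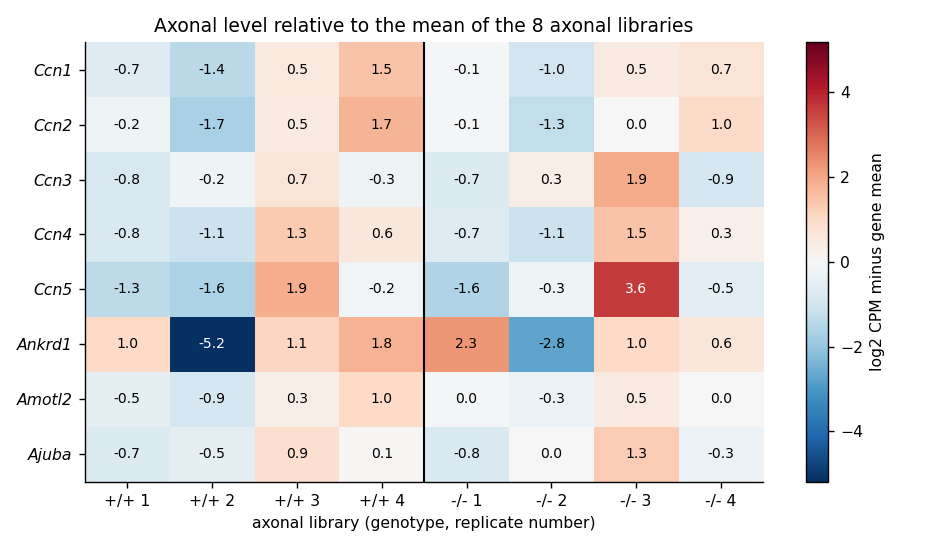
Log2 CPM of the 8 genes in the 8 axonal libraries, each gene set to 0 at its mean over them; red is above and blue below that mean, and the black line parts +/+ from Hnrnpr-/- libraries. Ccn1 and Ccn2 are highest in library 4 of both genotypes, Ccn3, Ccn4, Ccn5 and Ajuba in library 3, and Ankrd1 is lowest in library 2.

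The genes most like Ccn1 over all 16 libraries were found by the root mean square difference of log2 CPM after each gene was set to a mean of 0. They were Pdlim1, an adaptor protein of actin stress fibers, at 0.45, Ccn2 at 0.48, the galectin Lgals1 at 0.55, the smooth muscle protein Tagln at 0.56 and Cryab at 0.60. Ccn2 was closest to Anxa2, a membrane-binding annexin, at 0.45, followed by Gm15270 at 0.45, Pdlim1 at 0.46, the tropomyosin gene Tpm2 at 0.47 and Ccn1 at 0.48. The profile of Ccn1 itself spanned 9.95 on the log2 scale. Among the members, Ccn4 came 29th and Ajuba 68th in likeness to Ccn1, Ankrd1 302nd, Ccn5 1302nd, Amotl2 3820th and Ccn3 13606th of the genes tested. Gm15270 is a predicted gene, and fractional counting can divide reads among similar genes, so its values are uncertain.

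Of the 7 listed genes for YAP, TAZ, the TEAD factors and Vgll4, 7 were higher in Hnrnpr-/- axons than in somata (edgeR, adjusted p under 0.05), against 27.5% of all genes tested, with a median log2 fold change of 2.35 against -0.0028 over all genes tested. Tead4 passed the filter on expression only through its axonal libraries and is no support for the count, which was 6 of 6 without it. The TEAD factors Tead2 and Tead1 rose by 3.0 ± 0.37 and 2.47 ± 0.39 on the log2 scale, and Wwtr1, which encodes TAZ, by 2.35 ± 0.47. Means in Hnrnpr-/- axons were 43.5 CPM for Tead2 and 119 CPM for Wwtr1. Tead4 was at a mean of 3.80 CPM there, and its fitted value of 4.00 ± 1.01 rests on 1 to 10 counts in Hnrnpr-/- somata. Yap1, 1 of these 7 and named outside the rule because the group bears its name, was at 27.4 to 47.0 CPM in Hnrnpr-/- axons and 7.04 to 12.3 CPM in somata (log2 1.91 ± 0.28, adjusted p = 0.000122).

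Of 17 genes for Hippo kinases and their upstream regulators, 7 were higher, 4 were lower and 6 did not pass, with a median of 0.10. Over all genes tested 27.5% were higher and 26.8% lower, and the share of lower genes is close to the latter. The kinase Lats2 rose most, by 2.99 ± 0.39 on the log2 scale, from a mean of 20.1 to 159.7 CPM, and the other increases named by the rule were those of the scaffold Wwc1 (2.10 ± 0.42), Amotl1 (1.38 ± 0.31), a relative of Amotl2, and the FERM protein Frmd6 (1.26 ± 0.38). The kinase Lats1, by contrast, fell by 0.91 ± 0.23, as did the kinase Taok2 by 0.86 ± 0.18, the tumor suppressor Nf2 by 0.80 ± 0.17 and the Lats co-activator Mob1b by 0.68 ± 0.27.

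Of 17 other genes known as YAP or TAZ targets, 10 were higher in Hnrnpr-/- axons, 3 were lower and 4 did not pass, against 27.5% higher and 26.8% lower over all genes tested, and the median was 2.01. Myof, a ferlin of membrane repair, rose by 3.59 ± 0.66 on the log2 scale, the forkhead factor Foxf2 by 3.43 ± 0.91, the IGF-binding protein Igfbp3 by 3.42 ± 0.61 and tissue factor F3 by 3.05 ± 0.54. Igfbp3 had a mean of 544 CPM in Hnrnpr-/- axons and 50.8 CPM in somata. Arhgef17, Rbms3 and Asap1 fell, by 0.86 ± 0.33, 0.56 ± 0.22 and 0.51 ± 0.18.

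Of 12 receptors that bind CCN proteins, 7 were higher in Hnrnpr-/- axons, 0 were lower and 5 did not pass, with a median of 1.30. Over all genes tested 27.5% were higher and 26.8% lower. Itgam, which did not pass the test, passed the filter on expression only through somatodendritic libraries, and without it 7 of 11 were higher. The integrin genes Itga5, Itgb1 and Itgb5 rose by 3.45 ± 0.68, 2.62 ± 0.42 and 2.38 ± 0.42 on the log2 scale and the syndecan Sdc4 by 2.23 ± 0.39. Serum response factor, its MRTF co-activators and their actin-linked target genes form a program also driven by actin tension. Of the 11 listed, 9 were higher and 0 lower, against 27.5% and 26.8% of all genes tested, with a median of 1.95. The genes that did not pass were the co-activators Mrtfa and Mrtfb, at -0.57 ± 0.26 and -0.49 ± 0.24. Myl9, the myosin light chain of smooth muscle, and Cnn2, a calponin, rose by 4.96 ± 0.86 and 4.84 ± 0.65, close to Ccn1 and Ccn2, followed by Tagln2 at 3.25 ± 0.58 and the tropomyosin Tpm1 at 3.19 ± 0.57. Of 11 serum-induced immediate early genes, 3 were higher and 0 lower, Ier2 by 2.58 ± 0.55, Ier3 by 1.65 ± 0.59 and Atf3 by 1.59 ± 0.52, with a median of 0.78. This share is that of all genes tested, 27.5%, and is not a result about the list. The list of other CCN genes held Ccn6 alone, with a log2 fold change of -1.57 ± 0.76 (edgeR adjusted p = 0.0937). In none of these lists did a gene pass the adjusted test for the genotype.

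Markers of other cell types were set beside these values. Of 8 pericyte and smooth muscle markers, 5 were higher in Hnrnpr-/- axons than in somata and 0 lower, against 27.5% and 26.8% of all genes tested, with a median of 2.47. Cnn1, Acta2 and Tagln, genes of the contractile apparatus, rose by 5.82 ± 1.07, 5.26 ± 1.14 and 5.26 ± 0.94 on the log2 scale and the pericyte genes Pdgfrb and Cspg4 by 3.02 ± 0.75 and 1.40 ± 0.48. The smooth muscle myosin gene Myh11 and the pericyte genes Rgs5 and Kcnj8 did not pass, at 1.46 ± 1.05, 1.91 ± 0.92 and -0.66 ± 1.01. The 8 genes summed to 61.3 to 456 CPM in +/+ and 82.2 to 294 CPM in Hnrnpr-/- somatodendritic libraries and to 1286 to 11314 CPM and 2207 to 10074 CPM in axonal libraries, and none of them was at 0 throughout a group. Several of them, such as Acta2, Tagln and Cnn1, are also targets of serum response factor. Their part in the axonal levels of the CCN genes was not tested.

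Of 7 fibroblast or meningeal markers, 0 were higher and 0 lower in Hnrnpr-/- axons, against 27.5% and 26.8% of all genes tested. Their median was -0.14, with SE of 0.88 to 1.69 on the log2 scale, so that a lack of calls does not show equal levels. In the +/+ contrast, given as a description, the median of these markers was 1.5. They summed to 130.0 to 552 CPM in +/+ and 161 to 1357 CPM in Hnrnpr-/- somatodendritic libraries against 137 to 1654 CPM and 436 to 1741 CPM in axonal libraries. Of 7 astrocyte or radial glia markers, Fabp7 and Sox9 were higher, by 1.84 ± 0.29 and 0.76 ± 0.28, and 5 did not pass, a share of higher genes near that of all genes tested. These summed to 981 to 1379 CPM and 916 to 2030 CPM in +/+ and Hnrnpr-/- somatodendritic libraries and to 1973 to 4755 CPM and 1909 to 3809 CPM in axonal libraries.

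Of 5 motoneuron markers tested, Chat and Slc18a3 were lower in Hnrnpr-/- axons, with means of 0.0766 and 1.52 CPM against 1.07 and 6.56 CPM in somata, and 3 did not pass. Chat passed the filter on expression only through the somatodendritic libraries, and without it 1 of 4 was lower, a share close to the 26.8% of all genes tested. These 5 summed to 3.83 to 16.4 CPM in +/+ and 2.55 to 9.13 CPM in Hnrnpr-/- axonal libraries. Of 5 endothelial markers tested, Kdr was higher by 3.01 ± 0.62, and Cldn5 and Pecam1, which define endothelium, were lower, with axonal means of 0.0564 and 0.323 CPM against 2.58 and 3.45 CPM. Both also passed the filter only through somatodendritic libraries, as did Tek, so their calls are no support for a count. Of 5 Schwann cell or oligodendroglia and 6 microglia markers tested, 0 passed in either direction, against 27.5% higher and 26.8% lower over all genes tested. Their medians were 0.77 and 1.34, with SE of 0.60 to 1.64, so that a lack of calls does not show equal levels. The Schwann cell or oligodendroglia markers tested summed to 38.3 to 322 CPM in somatodendritic and 27.9 to 503 CPM in axonal libraries, and the microglia markers to 9.95 to 122 CPM and 0.720 to 375 CPM. Their part in the levels of the CCN genes was not tested.

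**Figure D4:**
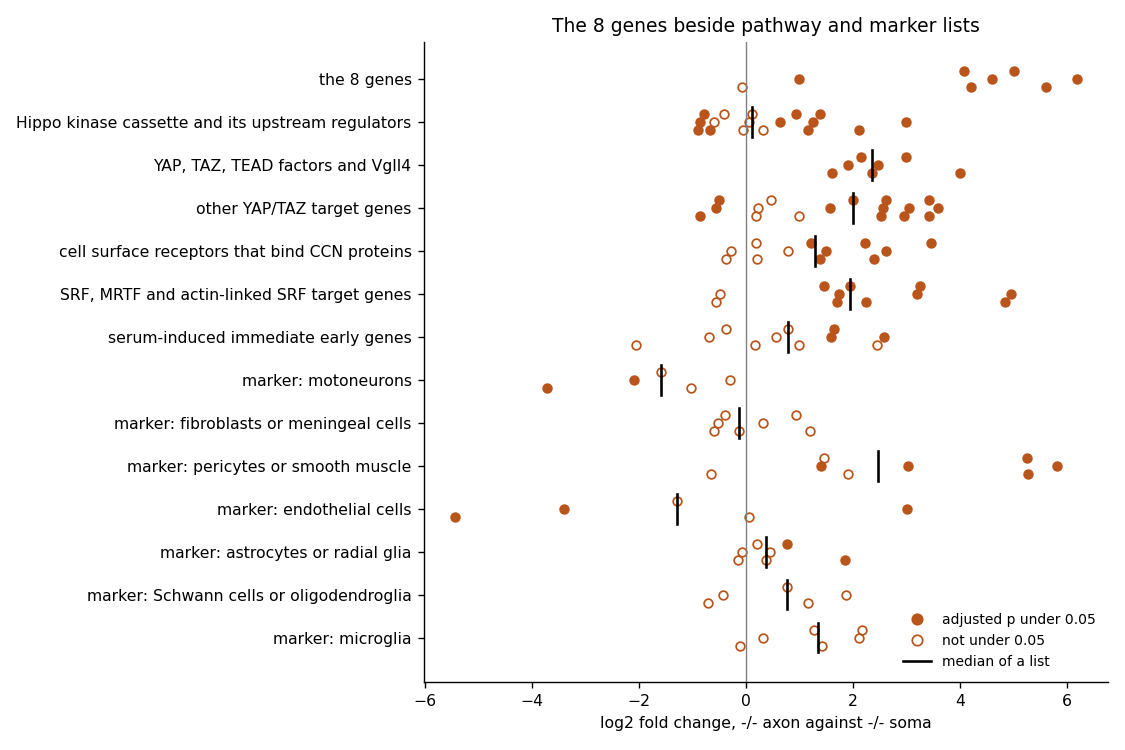
Log2 fold change of Hnrnpr-/- axon over Hnrnpr-/- soma for each gene tested in the 8 genes of the group and in 13 pathway and marker lists, with filled points at an adjusted p under 0.05 and a black bar at the median of each list. Ccn1 and Ccn2, at 5.62 and 5.02, lie at the upper end beside Cnn1, Acta2, Tagln, Myl9 and Cnn2, while the fibroblast markers lie around 0 in this genotype and the motoneuron markers to the left of it.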

How the data were processed

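RNA-seq libraries of motoneuron cell bodies with dendrites and of axons, from Hnrnpr-/- and +/+ mice, were analyzed, 4 per group as assigned by sample title. Per the methods and the processing notes, reads were trimmed with Cutadapt, mapped to GRCm39 with STAR 2.7.2b and counted on RefSeq exons with featureCounts 1.6.4 in the reverse-strand setting, with multi-mapping and overlapping reads counted as fractions. The deposited values are these expected counts as the authors made them, without normalization or filter. The SMART-Seq kit does not mark strand, so a gene and an antisense partner cannot be told apart, and reads on the other strand were left out of every count where that setting was applied, in a share the counts do not show. No 2 libraries were identical. The study calls the 4 libraries of a group biological replicates, while the labels do not tie them to cultures or animals.

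Counts were rounded, filtered by expression per group (19964 of 46320 genes), scaled by TMM and fitted with edgeR 4.0.16 (R 4.3.3) as 4 group means over all 16 libraries. P values were adjusted by Benjamini-Hochberg over the genes tested, at a threshold of 0.05, and an SE is the log2 fold change divided by the square root of F. CPM for log values and exact permutation tests carry a prior count of 2. DESeq2 1.42.0 and limma 3.58.1 served as alternatives. The model was tested on simulated data. The members, the 14 gene lists and the tests were chosen with earlier results of these data known. The genes named are the members with Ccn6 and Hnrnpr, up to 4 genes per list called in each direction in Hnrnpr-/- axons over somata, the 5 genes most like Ccn1 and Ccn2, and the gene ranked below Ccn1. Cryab above Ccn1, Yap1, Cspg4, Itgam, Mrtfa, Mrtfb and the marker genes that did not pass as well as Isl2 and Mnx1 were chosen once their values had been seen.

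Replicate numbers of the compartments were taken as pairs because, in each genotype, same-numbered axonal and somatodendritic libraries deviated together from their group means, with correlations across genes of 0.207, 0.206, 0.241 and 0.105 in +/+ and 0.402, 0.175, 0.190 and 0.508 in Hnrnpr-/- motoneurons. Between genotypes they did not all do so. Axonal libraries 1 to 4 correlated at 0.0261, 0.317, 0.677 and 0.00946.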

Additional observations from a re-analysis of the deposited data

Results flagged for a closer look

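Of the 32 groups of 4 libraries tested for a library that stands apart, 3 held one, where chance gives about 1 in 20, and each time it was a library numbered 3. Ccn5 was at 12.5 CPM in +/+ axonal library 3, with 1.03 to 2.97 CPM in the others, and at 41.3 CPM in Hnrnpr-/- axonal library 3, with 1.08 to 2.73 CPM in the others. Ajuba was at 18.7 CPM in +/+ somatodendritic library 3, with 4.10 to 4.44 CPM in the others.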

How the results depend on the processing

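In Hnrnpr-/- motoneurons 7 of the 8 genes were higher in axons under all edgeR alternatives with all libraries, with voom and with the replicate number as a block, and 6 of 7 with either form of DESeq2, which gave no adjusted p for Ccn5. In the main fit 27.5% of all genes tested were higher. Each of these counts includes Ankrd1, which passed the main filter only through axonal libraries and is no support for them. Shrinkage in DESeq2 brought the log2 fold changes of Ccn1, Ccn2, Ccn4 and Ankrd1 to 4.86, 4.35, 3.98 and 3.39, and voom those of Ccn5 and Ankrd1 to 2.61 and 5.57. With 1 library left out the count was 5 to 7 and the log2 fold change of Ccn3 was -1.01 to 0.42. Without the 4 libraries numbered 3, an alternative chosen after the data were seen, Ccn5 was at 1.47 (adjusted p = 0.0653) and Amotl2 at 0.89 (adjusted p = 0.0970). The block, with the replicate number across or within genotypes, changed no call, but brought Ccn5 to 2.57 and 2.51 from 4.08 on the log2 scale. In the +/+ contrast the median of the 8 genes was 4.61, with 4.16 to 5.45 under a library left out and 3.53 with shrinkage in DESeq2. The exact permutation test gave the same 7 genes with a prior count of 0.5, and with 3 libraries it cannot reach the threshold (smallest p 0.0571).

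For the genotype no alternative called any of the 8 genes, while signs changed. In axons Ccn1 was at 0.052 with voom and 0.038 under the block, Amotl2 at 0.060 with voom, and Ccn4 at 0.022 without the filter, 0.0055 with at least 10 counts, 0.00010 without rounding and 0.019 with the groups compared alone. Ankrd1 kept its sign with voom but moved to 0.87 from 0.16. With 1 library left out the ranges in axons were -0.53 to 0.47 for Ccn1, -0.89 to 0.36 for Ccn2, -0.25 to 1.09 for Ccn3, -0.71 to 0.60 for Ccn4, -1.13 to 2.77 for Ccn5, -0.64 to 0.62 for Ankrd1, -0.34 to 0.35 for Amotl2 and -0.38 to 0.64 for Ajuba. In somata they were -0.14 to 1.15, -0.20 to 1.16, -0.61 to 0.10, -0.48 to 0.85, -0.077 to 0.76, -1.66 to 0.90, 0.00098 to 0.17 and 0.15 to 1.39 for Ccn1 to Ccn5, Ankrd1, Amotl2 and Ajuba, and Ankrd1 was at 0.66 with voom. For the genotype effect in axons minus somata they were -1.37 to 0.25 for Ccn1, -1.59 to 0.12 for Ccn2, -0.17 to 1.32 for Ccn3, -0.87 to 0.48 for Ccn4, -1.32 to 2.58 for Ccn5, -0.73 to 1.82 for Ankrd1, -0.42 to 0.26 for Amotl2 and -1.15 to 0.14 for Ajuba. Without the libraries numbered 3, Ccn3 and Ankrd1 were at 0.084 and 1.19 in somata, and Ccn5 and Ankrd1 at -0.57 and -0.94 in the difference. The cause of these changes was not tested.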
